A study of Rattus norvegicus with 8 samples.

Results

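The genes described here encode the subunits of cohesin, 10 in all, of 15154 genes that could be named on the array. They were chosen as the probes whose transcript accession maps to 1 of 10 rat RefSeq symbols. Rec8, Smc1b and Stag3 are the meiotic subunits, Rad21, Smc1a, Stag1 and Stag2 are their mitotic paralogues, and Smc3, Pds5a and Pds5b serve both kinds of division. All 10 were measured, by 12 probes, and all 12 probes were well above background on every array. The RNA came from testis cells sorted by flow cytometry for CD9, a cell-surface tetraspanin of spermatogonia, from transgenic Sprague-Dawley rats with a germ cell-specific green fluorescent protein. It was hybridised to one-colour Agilent arrays, 4 from aged rats (21 months) and 4 from young rats (4 months). The rats of both groups carried the transgene, and the comparison addressed which transcripts differed with age. The labels do not say whether each array came from its own animal or from pooled animals, so the p-values below reflect variation among these 8 arrays, part of which may be technical.

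Cohesin is a ring that holds sister chromatids together. A pair of SMC proteins forms the arms, a kleisin closes the ring, a STAG protein binds the kleisin, and PDS5 proteins regulate how long the ring stays on DNA. Germ cells entering meiosis add germ-line versions of the subunits: REC8 in place of the kleisin RAD21, SMC1B in place of SMC1A, and STAG3 in place of STAG1 or STAG2. The meiotic complexes build the axis of meiotic chromosomes, and cleavage of REC8 releases the chromosomes at the meiotic divisions.

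Signals were expressed as log2 processed signal minus the 75th percentile of the non-control probes of the same array, so that a value of 0 is the level of that percentile, which lay between 326 and 524 intensity units. Of the probes, 63.0% to 72.0% were well above background on an array, and with 4 arrays per group precision is limited. After a filter on dim probes 10236 genes were tested with limma, and every adjusted p given for a gene comes from that test after Benjamini-Hochberg adjustment over all of them. Among the markers of the sorted cells, Cd9 averaged -1.46 ± 0.30 in aged and -1.30 ± 0.12 in young cells, Zbtb16, a transcription factor of undifferentiated spermatogonia, -2.33 ± 0.17 and -2.23 ± 0.35, and the germ cell helicase Ddx4 0.19 ± 0.38 and 0.41 ± 0.17 (SD, n = 4 each). Young replicate 1 stood apart from the other young arrays in markers of other cells. The mean of 9 spermatid markers, each centred over the 8 arrays, was -0.46 in that array and 0.52 to 1.03 in the other young arrays, and the mean of 6 myoid and stromal markers was -0.56 there and 1.06 to 1.198 in the others. Values without it are therefore given beside the results of each member and paralogue pair. Aged and young arrays occupied separate rows of a single slide, so an effect of row and one of age cannot be told apart.

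Cohesin transcripts had higher values in aged than in young cells for all the meiotic subunits and for the mitotic Stag1 and Stag2, while the values of the core subunits Smc3 and Rad21 overlapped between the groups. None of the 10 members passed the limma test at an adjusted p under 0.05 in either direction, where 0.655% of all genes tested passed (0.498% higher and 0.156% lower in aged cells). At an unadjusted p under 0.05 there were 6 members, where 31.4% of all genes stood. In 5 members (Rec8, Smc1b, Stag3, Stag1 and Stag2) every aged value lay above every young value, as in 10.2% of all genes tested. In 0 members did every aged value lie below every young value, as in 4.12% of all genes, so that 5 members did not overlap in either direction, as in 14.3% of all genes. The median change over the 10 members was 0.40 on the log2 scale, aged minus young, against 0.11 over all genes tested. In these bulk samples a change in the number of cells of a type and a change in RNA per cell cannot be told apart.

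**Figure D1:**
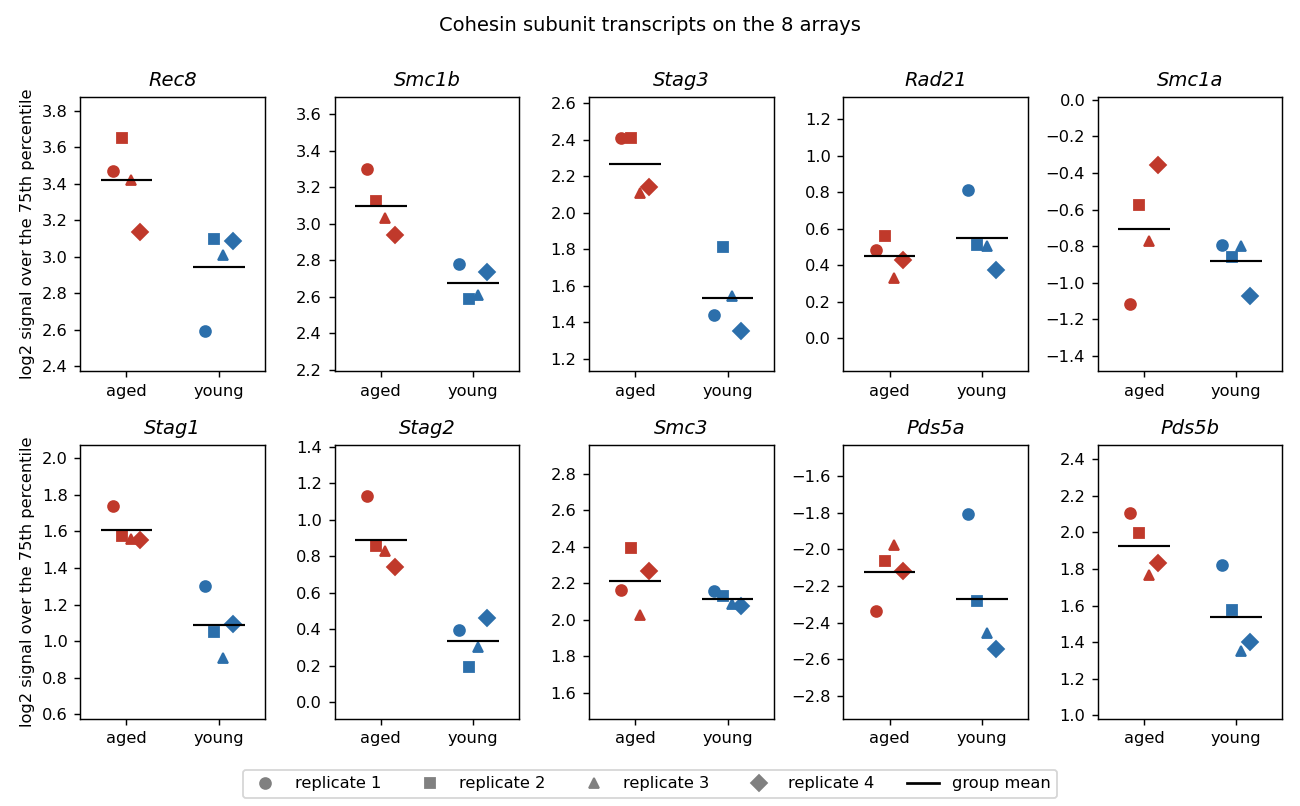
Log2 signal over the 75th percentile of the array (vertical axis) of the 10 cohesin genes on the aged and young arrays (horizontal axis), 1 point for each of the 4 replicates per group and a line at the group mean. Every panel spans 1.5 log2 units, with its own offset. The aged points of Rec8, Smc1b, Stag3, Stag1 and Stag2 lie above all young points, and the groups overlap in the other 5 genes.

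The kleisins differed in where their values lay. Rec8, the meiotic kleisin, had log2 signals of 3.47, 3.65, 3.42 and 3.14 in aged replicates 1 to 4, against 2.60, 3.098, 3.01 and 3.09 in young replicates 1 to 4. The groups did not overlap, but aged replicate 4 was only 0.040 above young replicate 2, and young replicate 1 was by far the lowest array. The log2 change was 0.47 ± 0.16 (SE, n = 4 per group, 95% interval 0.12 to 0.82, adjusted p = 0.0934), a 1.39-fold higher signal in aged cells. Without young replicate 1 it was 0.36 (adjusted p = 0.0599).

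Rad21, the kleisin of mitotic cohesin, had log2 signals of 0.48, 0.56, 0.33 and 0.43 in the aged replicates, against 0.81, 0.51, 0.51 and 0.37 in the young replicates. Young replicate 1, lowest for Rec8, was highest for Rad21, and the other 7 arrays lay between 0.33 and 0.56. The Rad21 change was -0.10 ± 0.12 (95% interval -0.37 to 0.17, adjusted p = 0.586). It was -0.014 without young replicate 1 (adjusted p = 0.916), -0.060 without aged replicate 3 and -0.16 without young replicate 4, so its size rests on single arrays.

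Among the SMC arms, Smc1b, the meiotic partner of SMC3, had log2 signals of 3.30, 3.13, 3.03 and 2.94 in aged replicates 1 to 4, against 2.78, 2.59, 2.61 and 2.74 in young replicates 1 to 4. The lowest aged array was 0.16 above the highest young array, so the groups did not overlap. Its change was 0.42 ± 0.11 (SE, n = 4 per group, 95% interval 0.16 to 0.68, adjusted p = 0.0708), and 0.45 without young replicate 1 (adjusted p = 0.0171).

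Smc1a, the SMC1 protein of mitotic cohesin, had log2 signals of -1.11, -0.57, -0.77 and -0.35 in aged cells, against -0.80, -0.86, -0.80 and -1.07 in young cells. Aged replicate 1, highest of all arrays for Smc1b, was the lowest of all for Smc1a, and the aged arrays spread widely. Its change of 0.18 ± 0.17 had a 95% interval from -0.20 to 0.55 (adjusted p = 0.472). Single arrays moved it: it was 0.32 without aged replicate 1, 0.062 without aged replicate 4 and 0.11 without young replicate 4. Without young replicate 1 it was 0.21 (adjusted p = 0.375).

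Smc3, which both kinds of cohesin share, had log2 signals of 2.16, 2.39, 2.03 and 2.27 in aged cells, against 2.16, 2.13, 2.09 and 2.08 in young cells. The young arrays lay close together and the aged arrays lay on both sides of them. The change was 0.098 ± 0.11 by the probe used (95% interval -0.15 to 0.34, adjusted p = 0.548) and also 0.098 ± 0.10 by the other Smc3 probe. By the probe used it was 0.11 without young replicate 1 (adjusted p = 0.408), 0.038 without aged replicate 2 and 0.16 without aged replicate 3.

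The STAG subunits bind the kleisin from outside the ring, and in all 3 the aged arrays lay above the young arrays. Stag3, the meiotic form, had log2 signals of 2.41, 2.41, 2.11 and 2.14 in the aged replicates, against 1.44, 1.81, 1.54 and 1.35 in the young replicates. The gap between the groups was 0.30, wider than for any other member. Its change of 0.73 ± 0.14 was the largest of the 10 (SE, n = 4 per group, 95% interval 0.42 to 1.04, a 1.66-fold higher signal) and just missed the threshold (adjusted p = 0.0504). Without young replicate 1 it was 0.70 (adjusted p = 0.0101).

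Stag1 had log2 signals of 1.74, 1.58, 1.56 and 1.55 in aged replicates 1 to 4, against 1.30, 1.05, 0.91 and 1.09 in young replicates 1 to 4. The aged arrays were tightly grouped apart from replicate 1, and all lay at least 0.25 above the young arrays. The change was 0.52 ± 0.11 (95% interval 0.26 to 0.78, adjusted p = 0.0561), and 0.59 without young replicate 1 (adjusted p = 0.00576). STAG1 is the form of mitotic cohesin best known for cohesion at telomeres.

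Stag2, the more abundant mitotic form in most cell types, had log2 signals of 1.13, 0.86, 0.83 and 0.74 in aged cells, against 0.40, 0.19, 0.30 and 0.46 in young cells. The lowest aged array was 0.28 above the highest young array. Its change was 0.55 ± 0.12 by the brighter probe (95% interval 0.28 to 0.82, adjusted p = 0.0561) and 0.36 ± 0.099 by the other probe, on which the groups did not overlap either. Without young replicate 1 the change of the brighter probe was 0.57 (adjusted p = 0.0117).

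The PDS5 regulators bind cohesin and take part both in its release from DNA and in the protection of cohesion. Pds5b had log2 signals of 2.11, 1.997, 1.77 and 1.83 in aged cells, against 1.82, 1.58, 1.35 and 1.40 in young cells. Only young replicate 1 reached the aged range, above aged replicate 3. The Pds5b change was 0.39 ± 0.14 (95% interval 0.08 to 0.70, adjusted p = 0.107), and 0.48 without young replicate 1 (adjusted p = 0.0168).

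Pds5a, the paralogue, had log2 signals of -2.34, -2.06, -1.97 and -2.12 in aged cells, against -1.80, -2.28, -2.46 and -2.55 in young cells. Young replicate 1 was the highest of the 8 arrays and the other young arrays were among the lowest. The Pds5a change was 0.15 ± 0.17 (95% interval -0.24 to 0.54, adjusted p = 0.567), and without that array it was 0.30 (adjusted p = 0.0752). It was 0.099 without aged replicate 3, 0.087 without young replicate 3 and 0.057 without young replicate 4.

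**Figure D2:**
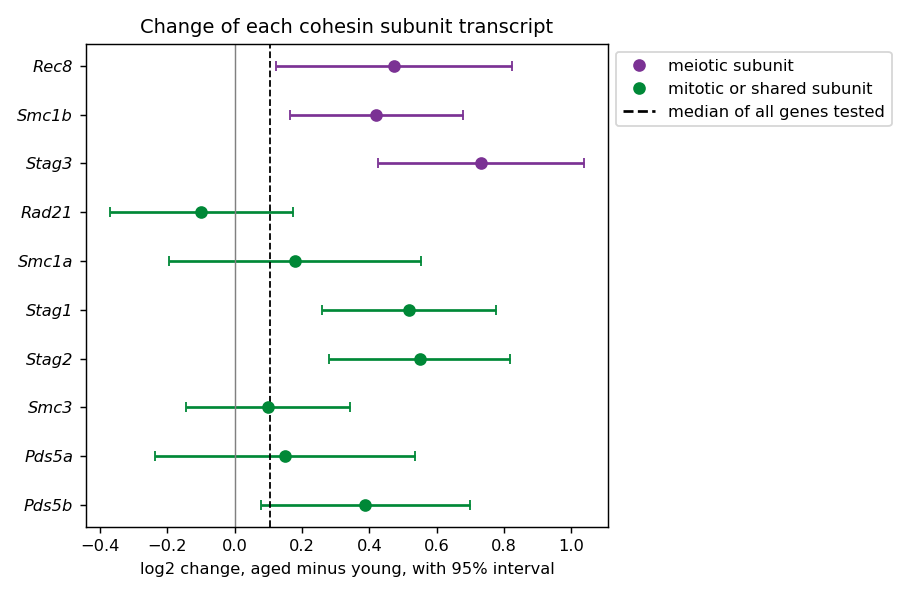
Log2 change, aged minus young (horizontal axis), with its 95% limma interval for each of the 10 cohesin genes (rows). The dashed line marks the median of all genes tested at 0.11, and only the intervals of Smc1b, Stag3, Stag1, Stag2 and Rec8 lie wholly above it.

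Leaving out young replicate 1 moved 5 members past the threshold (Smc1b, Stag3, Stag1, Stag2 and Pds5b), all higher in aged cells, but 36.9% of all genes then passed. Leaving out any other single array left 0 members past it in limma, with 5 or 6 members at an unadjusted p under 0.05. In those fits 1951 to 3009 of all 10236 genes tested stood at an unadjusted p under 0.05.

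Whether a meiotic subunit moved more than its mitotic paralogue was asked within each array, where any scaling that subtracts 1 value per array cancels. In 4 pairs the log2 signal of the paralogue was subtracted from that of the meiotic gene, and the differences, centred over the 8 arrays because levels of different probes cannot be compared, were tested between the groups by an exact two-sided permutation test, whose smallest p with 4 against 4 arrays is 0.0286. The centred Rec8 minus Rad21 difference was 0.30, 0.41, 0.41 and 0.026 in aged replicates 1 to 4, against -0.90, -0.097, -0.18 and 0.028 in young replicates 1 to 4. Aged replicate 4 lay at the height of young replicate 4, and young replicate 1 was the lowest by a wide margin. The groups differed by 0.57 ± 0.23 (SE, n = 4 each, exact p = 0.0571, adjusted over the 4 pairs p = 0.229), and by 0.37 without young replicate 1 (exact p = 0.0857).

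The other pairs showed smaller differences, with overlapping groups. Smc1b minus Smc1a differed by 0.24 ± 0.25 between aged and young cells (exact permutation p = 0.429, adjusted p = 0.429). The difference was 0.25 without young replicate 1 (exact p = 0.571), 0.038 without aged replicate 1 and 0.41 without aged replicate 4. Stag3 exceeded the change of Stag1 by 0.21 ± 0.16 (exact p = 0.286, adjusted p = 0.419), and that of Stag2 by 0.18 ± 0.17 (exact p = 0.314, adjusted p = 0.419). Without young replicate 1 Stag3 minus Stag1 was 0.11 and Stag3 minus Stag2 0.13 (exact p = 0.571 for the latter). The Stag3 minus Stag2 value was 0.081 without young replicate 4 and 0.32 without young replicate 2 (exact p = 0.0286, the smallest possible). Rec8 minus Rad21 also reached that p without young replicate 4, at 0.68. With all 8 arrays every difference was above 0 and 0 of the 4 passed the test. At the smallest possible exact p, 1 pair alone would still not pass after adjustment over the 4 pairs. The test thus had little power, and whether the meiotic subunits changed more than their paralogues cannot be told from it. Quantile scaling, which does not cancel within an array, gave 0.45 for Rec8 minus Rad21, 0.075 for Smc1b minus Smc1a, 0.17 for Stag3 minus Stag1 and 0.10 for Stag3 minus Stag2 (exact permutation p = 0.0857, 0.8286, 0.343 and 0.629, in that order). With the mean of both Stag2 probes Stag3 minus Stag2 was 0.28.

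**Figure D3:**
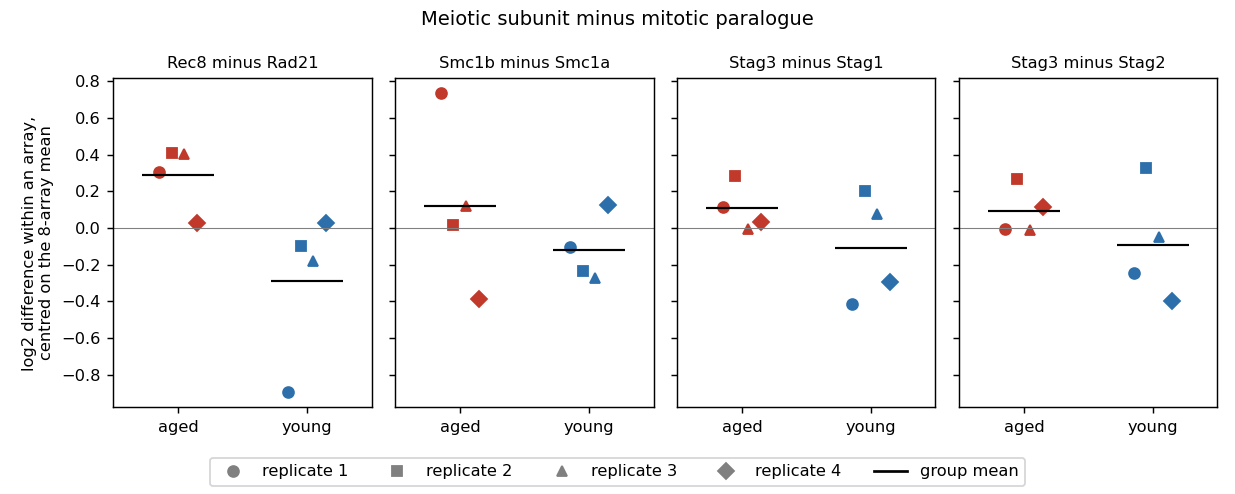
Log2 difference between a meiotic subunit and its mitotic paralogue within an array, centred on the mean of the 8 arrays (vertical axis), for 4 pairs in aged and young cells. Points are the 4 replicates of a group and lines the group means. The groups overlap in every pair, and the Rec8 minus Rad21 value of young replicate 1 lies lowest, at -0.90.

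Promoter sequences are shown for the 5 members whose groups did not overlap, since their values lay on the same side. They run from 250 bases before to 50 bases after the annotated gene start, 5′ to 3′ on the strand of the gene, from RefSeq on build GRCr8, which is not the build of the array design. RefSeq windows were matched for 9 of the 10 members, all but Rad21. Capitals mark matches on either strand to GCGGGAA, the site form of E2F factors such as E2F6, or to CNCCTCAG, the motif reported for the meiotic initiator STRA8 in mouse, and the windows of Rec8 and Stag2 hold neither.
Rec8, chr15:33079568-33079867, plus strand: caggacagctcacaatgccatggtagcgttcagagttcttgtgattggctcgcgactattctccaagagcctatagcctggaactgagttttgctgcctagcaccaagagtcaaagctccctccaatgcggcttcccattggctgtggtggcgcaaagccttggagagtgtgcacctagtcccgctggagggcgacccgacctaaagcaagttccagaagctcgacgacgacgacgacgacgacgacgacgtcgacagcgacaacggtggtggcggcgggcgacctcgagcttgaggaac
Smc1b, chr7:118122599-118122898, minus strand: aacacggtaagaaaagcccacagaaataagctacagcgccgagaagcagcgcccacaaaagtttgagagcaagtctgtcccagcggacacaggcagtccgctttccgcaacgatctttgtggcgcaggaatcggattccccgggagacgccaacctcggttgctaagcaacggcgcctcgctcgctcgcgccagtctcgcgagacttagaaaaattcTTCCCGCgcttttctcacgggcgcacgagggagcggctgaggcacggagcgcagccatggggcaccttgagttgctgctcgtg
Stag3, chr12:22398158-22398457, plus strand: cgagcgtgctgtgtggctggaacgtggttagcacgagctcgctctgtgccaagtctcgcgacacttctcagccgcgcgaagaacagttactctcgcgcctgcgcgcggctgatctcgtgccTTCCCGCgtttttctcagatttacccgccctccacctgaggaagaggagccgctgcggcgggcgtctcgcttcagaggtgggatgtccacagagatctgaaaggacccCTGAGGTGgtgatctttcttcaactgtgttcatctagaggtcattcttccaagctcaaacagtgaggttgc
Stag1, chr8:110057806-110058105, plus strand: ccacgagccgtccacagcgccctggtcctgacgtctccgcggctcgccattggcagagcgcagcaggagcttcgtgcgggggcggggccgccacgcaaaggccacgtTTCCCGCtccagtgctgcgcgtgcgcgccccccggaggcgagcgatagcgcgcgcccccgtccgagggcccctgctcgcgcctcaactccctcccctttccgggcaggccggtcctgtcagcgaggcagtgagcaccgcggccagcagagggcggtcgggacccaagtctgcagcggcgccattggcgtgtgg
Stag2, chrX:125840151-125840450, plus strand: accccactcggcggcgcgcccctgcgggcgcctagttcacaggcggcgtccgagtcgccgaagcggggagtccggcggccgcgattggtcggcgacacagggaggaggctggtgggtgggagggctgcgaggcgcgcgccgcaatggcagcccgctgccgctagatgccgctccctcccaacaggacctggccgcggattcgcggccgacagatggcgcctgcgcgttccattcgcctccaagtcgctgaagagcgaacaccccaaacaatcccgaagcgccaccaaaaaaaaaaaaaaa

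The word GCGGGAA or its complement stood in 5 of the 9 member windows (Smc1b, Stag3, Smc1a, Stag1 and Pds5a), against 4.21% of 33469 windows of the same length over all genes. It was present in windows of Smc1a and Pds5a, whose arrays overlapped between ages, and absent from those of Rec8 and Stag2, whose arrays did not. It began at position -33 from the gene start in Smc1b and at -129 in Stag3, in both on the strand opposite to the gene. The GC content was 58.3% in Rec8, 59.7% in Smc1b, 58.0% in Stag3, 74.0% in Stag1 and 68.0% in Stag2, with a median of 51.7% over all windows. It was 55.3% in Smc1a and 61.0% in Pds5a. The word GCGGGAA is itself rich in GC, and its share was not computed over windows of like GC content. Whether members hold it more often than such windows was therefore not tested. CNCCTCAG matched in 1 member window, that of Stag3, at position -21 (8.86% of all windows), and its match did not overlap the other motif. The E-box CACGTG matched in the Smc1a window alone (6.42% of all windows), the cyclic AMP response element TGACGTCA in 0 (1.83%), and CCAAT, not marked, in 4 (37.5%), namely Rec8, Smc1a, Stag1 and Stag2. Smc1b and Stag3 also shared a longer stretch around GCGGGAA, 18 bases long, of which 17 were the same. This was noticed after the sequences had been read. The pattern CTTCCCGCGNTTTTCTCA was found in 3 of the 33469 windows, those of Smc1b, Stag3 and Ribc2, and the window of Ribc2, the neighbour of Smc1b on the opposite strand, shares 218 bases with that of Smc1b.

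The size and sign of the member changes depended on the scaling between arrays. The median gene stood at 0.11 with percentile scaling, at 0.26 with scaling to array medians and at -0.35 with scaling to 4 spike-in RNA probes. Measured from the median gene, Stag3 was 0.63 higher in aged cells, Stag2 0.44, Stag1 0.41, Rec8 0.37, Smc1b 0.32 and Pds5b 0.28, while Smc1a (0.073), Pds5a (0.044), Smc3 (-0.0072) and Rad21 (-0.21) lay nearer to it or below. These distances are fixed under any scaling that subtracts 1 value per array. With quantile scaling they were 0.51, 0.41, 0.34, 0.22, 0.19 and 0.19 for Stag3, Stag2, Stag1, Rec8, Smc1b and Pds5b, and 0.18, 0.12, -0.13 and -0.23 for Pds5a, Smc1a, Smc3 and Rad21, which brought Pds5a about level with Smc1b and Pds5b. In absolute terms Stag3, Stag2, Stag1 and Rec8 stayed above 0 under all 5 scalings, down to 0.28, 0.093, 0.063 and 0.018 with spike-in scaling, which turned Smc1b to -0.035, Smc1a to -0.28, Smc3 to -0.36, Pds5a to -0.31 and Pds5b to -0.068.

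**Figure D4:**
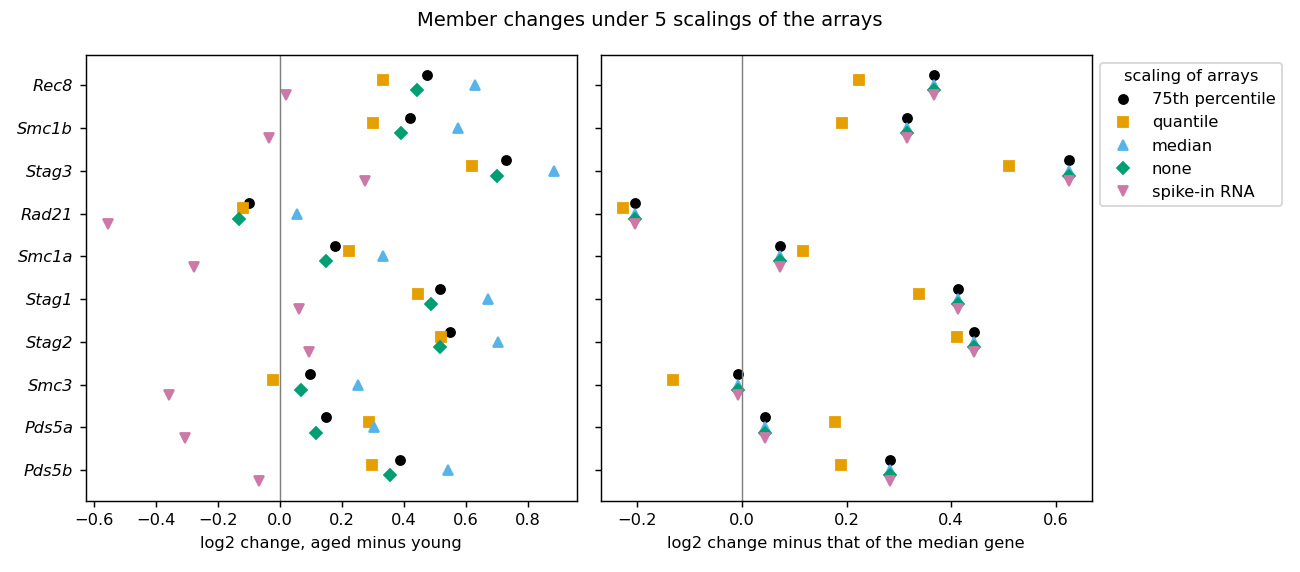
Log2 change, aged minus young, of the 10 cohesin genes (rows) under 5 scalings of the arrays, as measured on the left and after subtracting the change of the median gene on the right (horizontal axes). Spike-in scaling shifts all genes to lower values, and Stag3 lies farthest above the median gene under all 5 scalings, by 0.51 to 0.63.

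Of 19 genes that load, release or regulate cohesin 10 were tested, with a median change of 0.15 against 0.11 for all genes. Of these 8 had higher values in aged cells, as had 6493 of all 10236 genes tested. The mitotic checkpoint kinase gene Bub1, which marks centromeres for the shugoshin proteins that protect cohesin there, rose by 0.64 ± 0.11 (adjusted p = 0.0465) and was the only gene of the list to pass. With any 1 array left out other than young replicate 1, 0 genes of the pathway and marker lists passed in limma, so every call given for these lists, that of Bub1 included, was lost there. Mau2, a subunit of the complex that loads cohesin, changed by 0.27 ± 0.11 (adjusted p = 0.131), and the boundary factor Ctcf, which halts cohesin on chromatin, by 0.23 ± 0.13 (adjusted p = 0.264). Cdca5, the gene of sororin, which protects cohesin from release, had a value of -0.84 ± 0.34 (adjusted p = 0.139).

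Of the related SMC complexes, condensin and SMC5/6, 0 of the 10 genes tested passed in limma, with 3 at an unadjusted p under 0.05 and 9 with higher values in aged cells (median 0.24), against 3217 and 6493 of the 10236 genes tested. Smc5 (0.53 ± 0.14, adjusted p = 0.0660), Smc4 (0.38 ± 0.11, adjusted p = 0.0801), Smc2 (0.44 ± 0.17, adjusted p = 0.126) and Nsmce2 (0.30 ± 0.14, adjusted p = 0.163) had the smallest p. Smc5 and Nsmce2 belong to the repair complex, Smc4 and Smc2 to condensin, which compacts chromosomes.

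Genes of the meiotic chromosome axis and synaptonemal complex, which assemble on meiotic cohesin, all had higher values in aged cells, with a median of 0.74 over the 9 tested. Syce1, of the central element, rose by 0.72 ± 0.11, and Sycp3, of the axis, by 1.19 ± 0.20 (adjusted p = 0.0465 for both), while the central element genes Syce2 (0.83 ± 0.17, adjusted p = 0.0547) and Tex12 (0.62 ± 0.14, adjusted p = 0.0561) did not pass. The list mean, each gene centred over the 8 arrays, was 0.61, 0.31, 0.40 and 0.20 in aged replicates 1 to 4, against -0.097, -0.44, -0.56 and -0.43 in young replicates 1 to 4. These groups did not overlap, and the median changes of the meiotic cohesin subunits (0.47) and of the list (0.74) lay on the same side of the median gene. Proliferation genes had a median of 0.13 over 13 tested, 11 of them higher and 0 past the limma threshold (2 at an unadjusted p under 0.05). The 4 with the smallest p were Birc5, of the chromosomal passenger complex (0.38, adjusted p = 0.114), the replicative helicase gene Mcm4 (0.35, adjusted p = 0.122), the replication clamp Pcna (0.15, adjusted p = 0.272) and the mitotic cyclin Ccnb1 (-0.18, adjusted p = 0.367). The mean of the proliferation list was 0.19 in young replicate 1, -0.16 to -0.13 in the other young arrays and 0.008 to 0.14 in the aged arrays.

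Marker genes that passed were 6 of spermatocytes and 1 of Sertoli cells, and the part of other cells in the cohesin values was not tested. Of all 10236 genes tested 0.655% passed in limma and 31.4% stood at an unadjusted p under 0.05. Values were higher in aged cells for 6493 of them. The counts below are to be read beside these shares. Of 12 spermatocyte markers 11 were tested. Of these 8 had higher values in aged cells, 6 passed in limma, all higher, and 10 stood at an unadjusted p under 0.05. The list mean was -0.098 to 0.48 on the aged arrays against -0.23 to -0.18 on the young arrays. The log2 of the summed linear signals of a list, in which its brightest genes weigh most, was 5.06 to 5.53 against 4.76 to 5.49. The 4 with the smallest p, Msh5 (1.19), Meiob (1.19), Msh4 (1.11) and Spata22 (1.43, adjusted p = 0.0465 for each), act in meiotic recombination. The later-stage markers Ccna1 (-1.54, adjusted p = 0.0527), Pgk2 (-1.02, adjusted p = 0.140) and Ldhc (-0.94, adjusted p = 0.149) had lower values and did not pass. Piwil1, of the same list, went the other way and did not pass either (0.49, adjusted p = 0.301). Sycp3 and Sycp1 stand in both this list and the axis list. All 6 tested markers of undifferentiated spermatogonia had lower values in aged cells (0 of them past the limma threshold, 2 at an unadjusted p under 0.05). Their list mean was -0.40 to -0.078 on aged against 0.13 to 0.28 on young arrays, and the log2 of their summed signals 1.78 to 2.04 against 2.11 to 2.30. The 9 spermatid markers were all lower in value too, with 0 past the threshold in limma and 3 at an unadjusted p under 0.05, and their list mean was -1.09 to -0.11 on aged against -0.46 to 1.03 on young arrays. The log2 of their summed signals was 7.66 to 8.72 on aged and 8.11 to 9.37 on young arrays. The 6 myoid and stromal markers had lower values as well, with 0 past the threshold and 6 at an unadjusted p under 0.05. For them the log2 of the summed signals was 0.15 to 1.10 on aged against 0.92 to 2.93 on young arrays. Of 7 Sertoli cell markers 2 were tested. Amh, Cldn11, Gata4 and Wt1 did not pass the filter on dim probes, and Rhox5 rose by 0.82 (adjusted p = 0.0465). Clu, the brighter of the 2 tested, changed by 0.23 ± 0.40 (adjusted p = 0.716), and its groups overlapped. In limma 0 genes passed among 3 markers of differentiating spermatogonia (0 at an unadjusted p under 0.05, median 0.13), 4 of Leydig cells (0, median -0.20), 4 of macrophages (1, median -0.62) and 3 of endothelium (1, median -0.11).

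**Figure D5:**
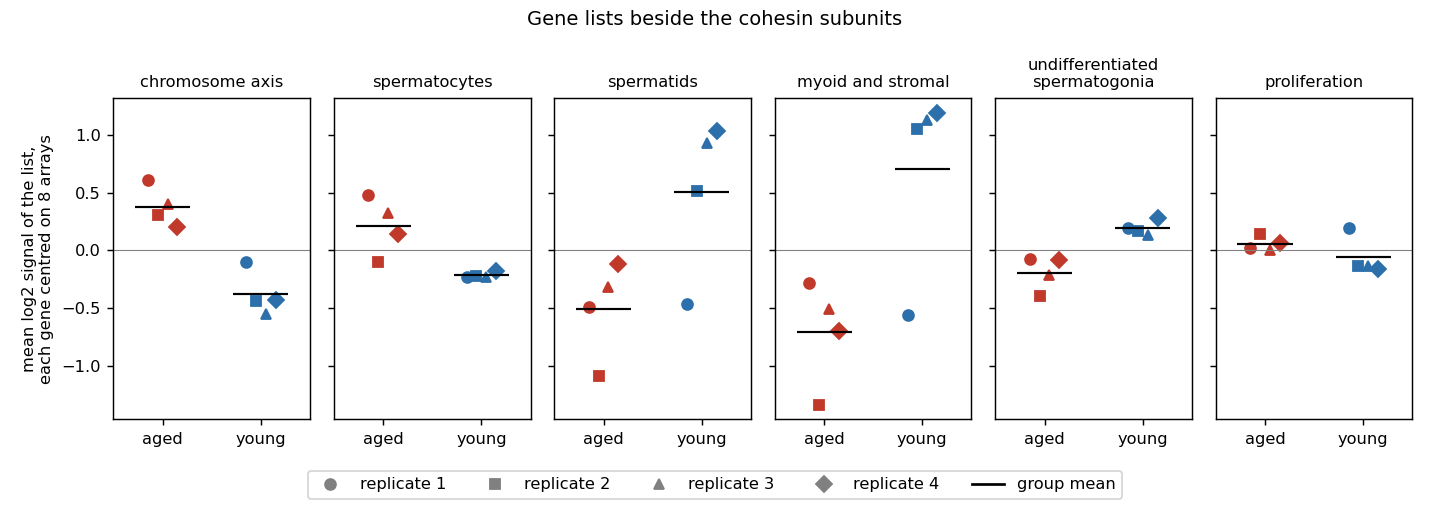
Mean log2 signal of 6 gene lists (panels), with genes centred over the 8 arrays before averaging (vertical axis), on the aged and young arrays. Points are the 4 replicates of a group and lines the group means. The chromosome axis list separates the groups, from 0.20 to 0.61 in aged cells against -0.56 to -0.097 in young cells. So do the spermatocyte list (-0.098 to 0.48 in aged against -0.23 to -0.18 in young cells) and, with aged below young, the undifferentiated spermatogonia list (-0.40 to -0.078 against 0.13 to 0.28). Young replicate 1 stands with the aged arrays for the spermatid and myoid lists and lies above all other arrays for the proliferation list.

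The genes most like the meiotic subunits over the 8 arrays, by Pearson correlation of log2 signals among all genes tested, were different for each subunit. For Rec8 they included Lrrc36 (r = 0.985) and Hmgn3 (r = 0.955). Smc1b was matched by Pmpcb (r = 0.991), R3hdm1 (r = 0.989) and Gtf2a2 (r = 0.988), and Stag3 by Zup1 (r = 0.987), Trim39 (r = 0.980) and Ppp6r2 (r = 0.980). These values describe 8 arrays that share 1 slide and fall into 2 age groups, and among 10236 genes high values are found for any pattern.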

How the data were processed

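Each array's scanner file was written by Agilent Feature Extraction 10.7.3.1 for a design on rat build rn4, per the file headers, whereas the submitters' processing notes name version 12.5. The deposited processed signal used here is a linear intensity, and the statistics block of the file headers records a spatial and a multiplicative detrending. The deposited median spot and background signals served for an alternative background correction. Other deposited columns hold 0 or 1 flags for spots. The authors' series table holds log2 values centred per probe. Over bright probes its differences between arrays matched the log2 processed signals (slope and r of 1), which settled scale and direction. The scaling before centring is not known for certain. With that table the Stag3 change was 0.732, against 0.731 with percentile scaling and 0.700 without scaling. It is therefore not an independent check of the percentile scaling. Medians of its columns were -0.02, 0.05, 0.06 and -0.003 for aged replicates 1 to 4, against 0.09, -0.07, -0.13 and -0.06 for the young ones.

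Control and outlier spots were left out, spots of a probe averaged as log2 values, and the 75th percentile of the 30367 non-control probes subtracted per array. Unversioned accessions were matched to the RefSeq table of GRCr8, which named 17998 probes and 15154 genes. Probes entered the test when, on all arrays of 1 group or both, a share of 0.5 or more of the spots exceeded background, with 2 or more values per group, and the brightest such probe stood for its gene. Aged and young arrays were compared by limma 3.58.1 (lmFit, eBayes, two-sided), called at an adjusted p under 0.05, in R 4.3.3. Tables were read with jsonlite 2.0.0 and the data.table package (1.17.8). The fit was tested on simulated data. Members, gene lists and motifs were chosen with earlier results of these data known. All 10 members are named, with up to 4 genes of smallest p per list, Cd9, Zbtb16, Ddx4 and the 3 genes most correlated with each meiotic subunit, of which 1 is not reported here. Ccna1, Pgk2, Ldhc, Piwil1, Ribc2 and Gpc2 were named after their values were seen. Alternatives covered scaling, background correction, filters, probe choice, the fit, the threshold and each array left out.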

Additional observations from a re-analysis of the deposited data

Results flagged for a closer look

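Among 28 groups of 4 values examined (10 members and 4 paralogue differences, in aged and in young cells), 1 held a value far from the others. The Stag1 log2 signal of aged replicate 1 was 1.74, while the other aged arrays lay between 1.55 and 1.58. Chance alone marks about 1 in 20 such groups. Without aged replicate 1 the change of Stag1 was 0.47, against 0.52 with it.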

How the results depend on the processing

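Over 220 recomputed member changes, 186 kept their direction and side of the threshold, 26 moved past it and 8 turned. The turns were Smc1b (-0.035), Smc1a (-0.28), Smc3 (-0.36), Pds5a (-0.31) and Pds5b (-0.068) with spike-in scaling, Smc3 with quantile scaling (-0.023) and with normexp and quantile scaling (-0.051), and Rad21 with median scaling (0.055). The cause was not tested. Members past the threshold numbered 0 in the analysis reported, 5 with median scaling, 4 with normexp and percentile scaling, 2 with normexp and quantile scaling, 3 with a variance trend and robust fit, 7 with array weights and 5 at an adjusted p under 0.1. Over all genes the count was 67. It became 1330 with median scaling, 0 without any scaling (1389 unadjusted at p under 0.05), 1067 with spike-in scaling (6 higher, 1061 lower in aged cells), 630 and 253 with normexp before percentile or quantile scaling, 0 with no filter on dim probes (3339 unadjusted), 0 with unnamed probes tested too (4929 unadjusted), 270 with the variance trend, 4530 with array weights and 1674 at an adjusted p under 0.1. Leaving out 1 array at a time gave 0 to 3776 genes, 0 to 5 cohesin members, 0 to 17 pathway list members (3 with all arrays) and 0 to 29 marker list members (7 with all arrays), with each highest count reached without young replicate 1. Any other array left out gave 0 or 1 genes and 0 members of each of the other 3 counts. With median scaling the pathway and marker counts were 12 and 16, and with spike-in scaling 1 and 18. With the replicate number as a block, 0 genes (3230 unadjusted), 0 cohesin members (6 unadjusted), 0 pathway members (17 unadjusted) and 0 marker members (26 unadjusted) passed, and with that block Rec8 minus Rad21 was 0.57 (sign-flip exact p = 0.25, smallest possible 0.125). Same-numbered arrays had correlations of -0.26, -0.12, 0.44 and 0.35 in their deviations from group means, so the numbers were not taken as pairs, and 1 of 4 aged arrays correlated best with its own number. The Rec8 minus Rad21 difference was 0.52 with normexp and percentile scaling (exact permutation p = 0.0286, the smallest possible, before adjustment over the 4 pairs). It ran from 0.37 to 0.68 with 1 array left out. The same range was 0.038 to 0.41 for Smc1b minus Smc1a, 0.11 to 0.32 for Stag3 minus Stag1 and 0.081 to 0.32 for Stag3 minus Stag2. Every member was well above background on all arrays. Pds5a was the dimmest, with processed signals from 65 to 120, and an effect of the floor of the scanner on its change was not tested.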

Other observations

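Neighbours that start beside a meiotic cohesin gene on the opposite strand differed in direction. Ribc2, a gene of the microtubules of cilia and flagella, starts next to Smc1b on chromosome 7, and their promoter windows overlap by 218 bases on build GRCr8. Ribc2 had log2 signals of 0.96, 0.33, 0.90 and 1.16 in aged replicates 1 to 4, against 1.05, 1.61, 2.08 and 2.11 in young replicates 1 to 4. It changed by -0.87 ± 0.26 (SE, n = 4 per group, limma adjusted p = 0.0838), where Smc1b changed by 0.42 ± 0.11 (adjusted p = 0.0708), and the aged and young groups of Ribc2 overlapped through young replicate 1. Gpc2, a glypican gene, starts beside Stag3 on chromosome 12, with 85 bases between the windows. Its log2 signals were 3.33, 3.27, 2.77 and 2.76 in aged cells, against 2.15, 2.48, 1.88 and 2.12 in young cells. Gpc2 changed by 0.87 ± 0.18 (adjusted p = 0.0556), and its groups did not overlap, as for Stag3. Both neighbours were looked up after the promoter sequences had been read.

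Smc1a and Stag2 lie on the X chromosome, which is silenced in spermatocytes at pachytene. Their changes were 0.18 ± 0.17 and 0.55 ± 0.12 on the log2 scale, aged minus young, and a difference between the changes was not tested. Over the 278 X-linked genes tested the median change was 0.099, against 0.11 over 8167 genes on other chromosomes. These sets together do not cover all 10236 genes tested.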
